A study of Homo sapiens with 6 samples.

Results

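Transforming growth factor beta (TGF-beta) genes were followed in PA1, an established cell line from a human ovarian teratocarcinoma, after siRNA against the pluripotency transcription factor SOX2. The set holds 9 genes listed by name, of 59653 gene symbols in the count table: the ligands TGFB1, TGFB2 and TGFB3, the latent ligand binders LTBP1 and LTBP3, the receptors TGFBR1, TGFBR2 and TGFBR3, and TGFBI, its single target gene. All 9 were among the 17592 genes with enough counts to be tested. Both groups were wild-type PA1 cells transfected in adherent culture, 3 libraries with control siRNA and 3 with SOX2 siRNA. They stayed in that culture for 24 h after transfection and then spent 72 h on poly-HEMA, a coating that prevents attachment, before RNA was taken; the SOX2 siRNA libraries are called knockdown libraries below. The labels name 2 SOX2 siRNAs without saying whether they were pooled, and do not say that replicates were separate cultures, so p-values measure the spread between these libraries, which may be technical. The data come from a single cell line. Levels were measured in bulk RNA, where fewer cells with a transcript and less transcript per cell cannot be told apart.

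TGF-beta ligands are made as precursors that are cut by furin-like proteases, and the cut propeptide stays wrapped around the growth factor and keeps it latent. Latent TGF-beta-binding proteins tie this complex to the matrix, and integrins or proteases release the ligand. The free ligand binds the type II receptor TGFBR2, helped by the co-receptor TGFBR3 (betaglycan); TGFBR2 then phosphorylates the type I receptor TGFBR1, which activates SMAD2 and SMAD3 to regulate target genes together with SMAD4.

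Depth ranged from 25152313 to 32753184 counts per library, at which 3 counts, taken as the smallest amount told from none, equalled 0.0909 to 0.120 CPM (counts normalised to TMM-scaled library sizes). SOX2, the targeted gene, went from 255 ± 10.1 CPM in control to 52.5 ± 2.21 CPM in knockdown libraries (SD, n = 3). By edgeR's quasi-likelihood test, 4964 genes (28.2%) had a Benjamini-Hochberg adjusted p under 0.05, here termed called; 14.8% of all tested genes were called higher and 13.4% lower, and the median log2 fold change was -0.00085. Of the 9 embryonal carcinoma markers 8 were tested. Their summed level was 2778 to 2839 CPM in control and 2772 to 2837 CPM in knockdown libraries, most of it PODXL and LIN28A. TDGF1 was near 0 (0.0649 and 0.0222 CPM), and L1TD1 (1.79 and 1.64 CPM) and DPPA4 (3.05 and 2.34 CPM) were low. These last 2 and SALL4 (151 and 144 CPM) were not called. The marker sum joins opposite changes, as 5 of the 8 tested were called: LIN28A (706 to 1148 CPM), LIN28B (239 to 359), DNMT3B (99.7 to 132) and POU5F1 (301 to 339) were higher and PODXL (1316 to 671) lower in knockdown libraries. Summed fibroblast markers (6 genes, 4 tested) stood at 316 to 361 CPM in control and 491 to 541 CPM in knockdown libraries, with the fibroblast gene DCN near 0 (0.0133 and 0.0856 CPM). Most of this sum came from COL1A1 (282 to 358 CPM), PDGFRA (30.9 to 42.5 CPM) and PDGFRB (28.6 to 106 CPM), all called higher. LUM (1.08 and 1.55 CPM) was not called. COL3A1 was near 0, lower in knockdown libraries (0.172 and 0.0968 CPM) and, like DCN, not tested. Summed endothelial markers (4 genes, all tested) stood at 88.4 to 92.1 and 61.4 to 63.5 CPM. Of the 4 leukocyte markers, PTPRC and CD3E had at most 3 counts in any library, and summed levels were 2.46 to 15.1 and 2.10 to 18.6 CPM. LYZ gave most of that sum, with 481, 348 and 61 counts in control and 542, 48 and 364 in knockdown replicates 1 to 3. The 4 platelet markers summed to 4.55 to 5.40 and 4.45 to 5.57 CPM, nearly all of it ITGA2B (4.98 and 4.97 CPM), with PF4 and PPBP at 0. The part of these marker levels in the results below was not tested.

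Of the 9 TGF-beta genes, 3 were called, all higher after SOX2 siRNA: the ligand TGFB1, the type II receptor TGFBR2 and the latent binder LTBP3. That is 33.3% of the set, beside 28.2% of all tested genes called in either direction and 14.8% called higher. None of the 9 was called lower, beside 13.4% of all tested genes. With only 9 genes, the difference between these shares was not tested. The set's median log2 fold change was 0.044. The sequences just upstream of the RefSeq start sites (GRCh38.p14) of these 3 genes are shown because they are the members that rose. Each run is the 250 bases before the outermost listed start, 5′ to 3′ on the gene's strand; capitals mark the GC box GGGCGG, the SMAD element CAGAC and the SOX cores ACAAAG and ACAATG, on either strand.
TGFB1, chr19:41353923-41354172, minus strand: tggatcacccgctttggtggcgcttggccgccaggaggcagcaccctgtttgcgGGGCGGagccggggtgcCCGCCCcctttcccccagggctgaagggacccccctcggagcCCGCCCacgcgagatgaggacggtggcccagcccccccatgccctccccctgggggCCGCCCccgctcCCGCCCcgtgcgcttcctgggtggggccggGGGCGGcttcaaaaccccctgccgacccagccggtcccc
TGFBR2, chr3:30606106-30606355, plus strand: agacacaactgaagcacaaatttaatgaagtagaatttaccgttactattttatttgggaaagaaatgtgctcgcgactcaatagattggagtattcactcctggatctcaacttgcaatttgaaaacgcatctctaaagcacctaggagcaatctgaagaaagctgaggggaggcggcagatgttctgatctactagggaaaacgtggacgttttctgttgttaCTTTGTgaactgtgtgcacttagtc
LTBP3, chr11:65558360-65558609, minus strand: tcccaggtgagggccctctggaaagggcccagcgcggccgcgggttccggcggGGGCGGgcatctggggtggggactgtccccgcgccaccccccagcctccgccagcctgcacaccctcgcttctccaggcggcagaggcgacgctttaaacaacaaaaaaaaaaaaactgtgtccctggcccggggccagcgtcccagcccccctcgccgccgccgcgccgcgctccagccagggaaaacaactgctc
The TGFB1 window held 6 GC boxes, a number reached by 2.22% of the 35116 windows of this length, and no other motif searched. Its bases were 76.8% G or C, beside a median of 58.0% over all windows. One of the 8 windows of the uncalled TGFBR1 (chr9:99105564-99105813) also held 6. The LTBP3 window held 1 GC box, as at least 1 did in 42.6% of windows. The TGFBR2 window held 1 ACAAAG core, read as CTTTGT on this strand, found in 13.7% of windows; the window of its second start (chr3:30606351-30606600) held none, and 2 GC boxes. Over all 21 windows, GC boxes stood in those of 6 of the 9 genes and ACAAAG cores in those of 4, the other three being the uncalled TGFB2, LTBP1 and TGFBR1. The CAGAC element (38.0% of windows), its palindrome GTCTAGAC (0.182%) and the ACAATG core (9.29%) did not occur in the 3 windows, which says only that these letters are not in these bases. All 9 genes matched the RefSeq table, with more windows than genes since some genes have several starts; in 1 LTBP1 window CTTTGT and GTCTG overlap.

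Levels of different genes were compared per kilobase of exon (GENCODE 29). In control cells the type I receptor TGFBR1 stood highest, at 28.4 ± 1.49 CPM per kilobase of the union of its exons (SD, n = 3). LTBP1 followed at 12.8 ± 0.522 and TGFB1 at 10.1 ± 0.714 CPM per kilobase. TGFBR2, TGFBR3 and TGFBI came next at 4.64 ± 0.117, 4.46 ± 0.125 and 3.20 ± 0.0691 CPM per kilobase. The library ranges of TGFBR2 (4.55 to 4.77) and TGFBR3 (4.31 to 4.54) were close without overlapping. The order of these 3 rested on the length used, since with the longest coding transcript TGFBI had 8.90, TGFBR3 6.001 and TGFBR2 4.72 CPM per kilobase. LTBP3 at 0.869 ± 0.0281, TGFB3 at 0.305 ± 0.0359 and TGFB2 at 0.0599 ± 0.0231 CPM per kilobase closed the order. After SOX2 siRNA, TGFB1 stood at 16.9 ± 1.02 and LTBP1 at 11.8 ± 0.427 CPM per kilobase, so that these 2 genes changed places, by either length, and the other 7 kept theirs.

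**Figure D1:**
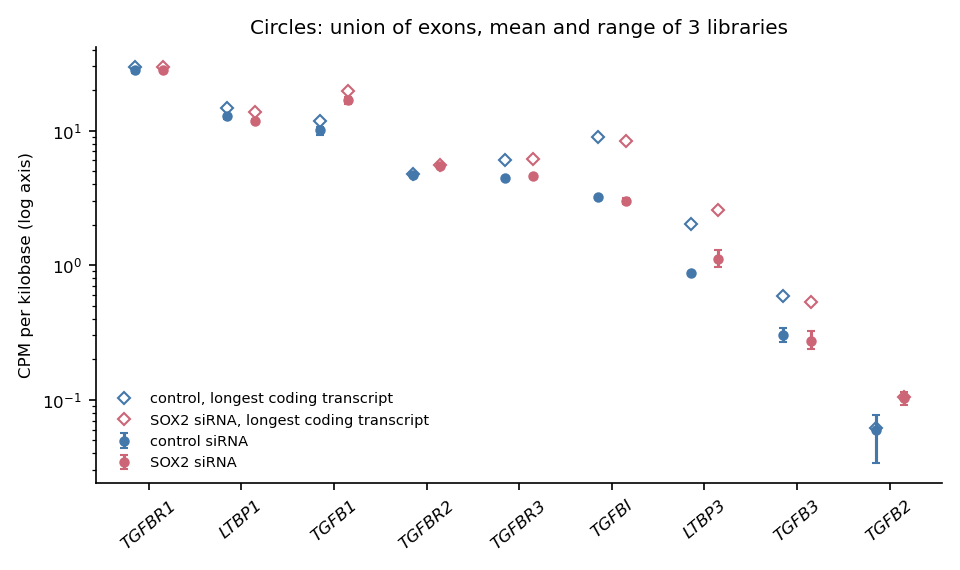
Level of each TGF-beta gene in CPM per kilobase (log axis) in control (blue) and SOX2 siRNA (red) libraries. Circles use the union of exons, with bars for the range of 3 libraries, and diamonds the longest coding transcript; TGFBR1 is highest at 28.4 and TGFB2 lowest at 0.0599 CPM per kilobase in control.

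The ligands were examined first. TGFB1 (chr19:41301587-41353911, GENCODE 29 on GRCh38), the ligand made by most tissues, had 34.0, 30.1 and 34.2 CPM in control replicates 1 to 3 and 55.4, 51.3 and 57.8 CPM in knockdown replicates 1 to 3. Every knockdown library lay above every control library. The mean rose from 32.8 ± 2.31 to 54.8 ± 3.29 CPM (SD, n = 3), a 1.67-fold rise (95% interval 1.53 to 1.82; edgeR adjusted p = 4.41e-08). Its p-value ranked 326th among the 17592 tested genes, and a two-sided exact permutation test over 3 against 3 libraries gave p = 0.1, the smallest it can give. On the opposite strand, exons of HNRNPUL1 cover 215 of the 3238 exon bases of TGFB1, and whether counting used strand is not given in the sources used here. HNRNPUL1, at 354 ± 6.53 and 374 ± 2.66 CPM (SD, n = 3), had a log2 fold change of 0.080 (edgeR adjusted p = 0.0797), against 0.74 (SE 0.0583) for TGFB1.

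TGFB2 (chr1:218346235-218444619), known for its part in heart and craniofacial development, was close to the detection floor. Control replicates 1 to 3 gave 13, 9 and 5 counts of it, and knockdown replicates 1 to 3 gave 16, 19 and 14. The CPM ranges did not overlap, as for 41.8% of all tested genes, but the test was not passed (log2 fold change 0.77, 95% interval -0.0008 to 1.53; edgeR adjusted p = 0.133). Without control replicate 3, the lowest library, the log2 fold change was 0.48, and over the 6 fits that each left out a library it ran to 1.01, none of them called. At this depth a rise as large as that of TGFB1 lay inside the interval. TGFB2-OT1, a transcript on the same strand within the gene, shares 1371 of its exon bases and had at most 4 counts in any library. TGFB3 (chr14:75958099-75982991), needed for closure of the palate, had 55, 38 and 38 counts in control and 48, 41 and 35 in knockdown replicates 1 to 3. Those groups overlapped, and the log2 fold change was -0.16 (95% interval -0.60 to 0.28; edgeR adjusted p = 0.627). Leaving out one library gave -0.30 (without knockdown replicate 1) to -0.072 (without control replicate 1), again with no call.

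Per exon length, TGFB1 made up 96.5% ± 0.629 of ligand transcripts in control and 97.8% ± 0.326 in knockdown libraries (SD, n = 3). The share of TGFB3 was 2.92% ± 0.397 and 1.58% ± 0.267, and that of TGFB2 0.577% ± 0.232 and 0.597% ± 0.102 (SD, n = 3). By the longest coding transcript, a length added after seeing the data, the share of TGFB3 was larger, 4.77% ± 0.639 and 2.61% ± 0.436, and that of TGFB1 94.7% ± 0.836 and 96.9% ± 0.481 (SD, n = 3). The summed ligand level was 10.5 ± 0.703 CPM per kilobase in control and 17.3 ± 1.002 in knockdown libraries, nearly all of it TGFB1.

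**Figure D2:**
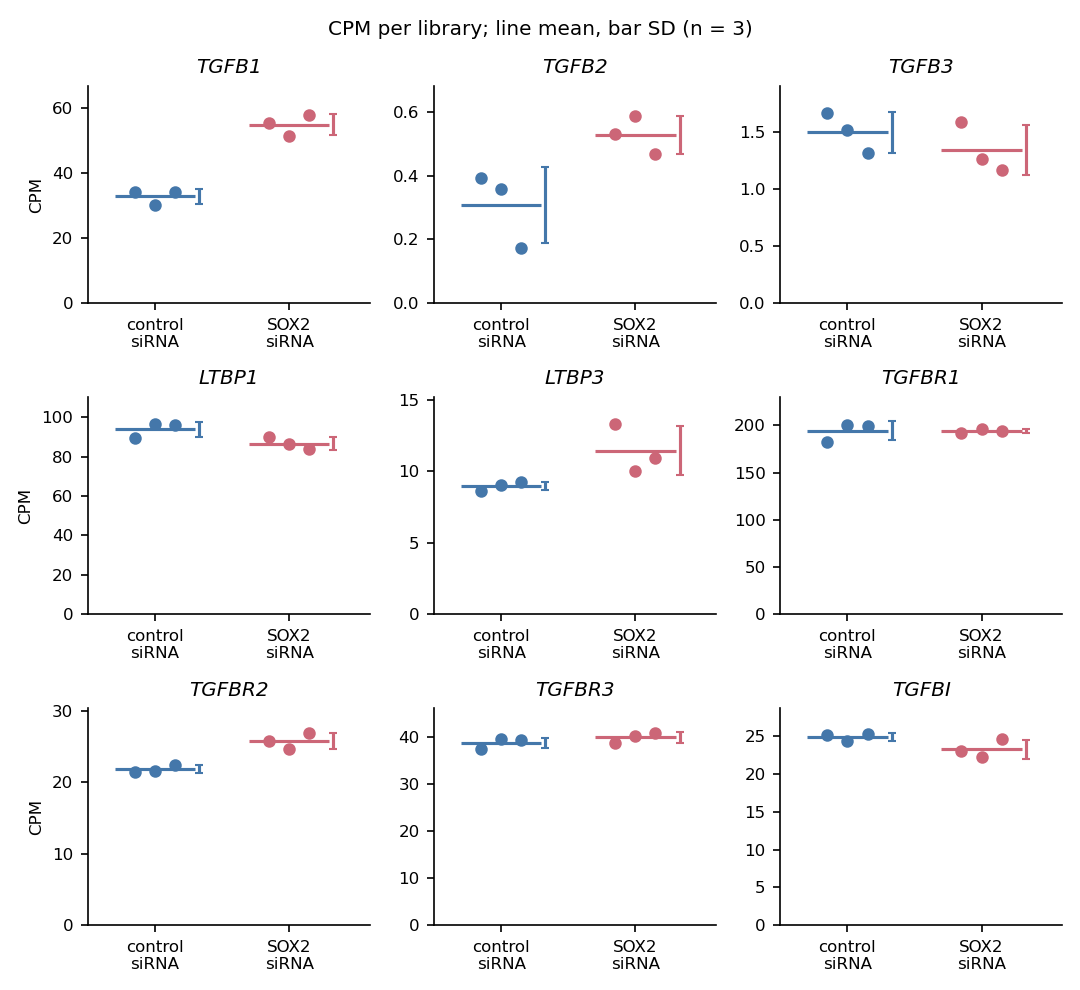
CPM of each gene in every library, on axes that start at 0, for control (blue) and SOX2 siRNA (red); the horizontal line is the mean and the bar the SD of 3 libraries. The groups are apart for TGFB1 (30.1 to 34.2 against 51.3 to 57.8 CPM), TGFB2, LTBP3 and TGFBR2, and overlap for the other 5 genes. Among all tested genes, CPM ranges were apart for 41.8%.

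Of the 2 latent binding proteins, LTBP3 was called higher and LTBP1 was not called. LTBP1 (chr2:32946972-33399509), which tethers latent TGF-beta to fibronectin and fibrillin, had 89.6, 96.5 and 95.8 CPM in control replicates 1 to 3 and 89.97, 86.3 and 83.7 CPM in knockdown replicates 1 to 3. The groups overlapped through control replicate 1 and knockdown replicate 1. The log2 fold change was -0.12 (95% interval -0.21 to -0.025) and did not pass the adjusted threshold (edgeR adjusted p = 0.0551). It passed at -0.15 when either control replicate 1 (adjusted p = 0.0203) or knockdown replicate 1 (adjusted p = 0.0226) was left out of the edgeR fit. LTBP3 (chr11:65538805-65558930), linked to bone and tooth development, had 8.63, 9.02 and 9.20 CPM in control and 13.3, 9.99 and 10.9 CPM in knockdown replicates 1 to 3. The groups did not overlap, and knockdown replicate 1 stood furthest out. LTBP3 rose 1.27-fold (95% interval 1.10 to 1.47; edgeR adjusted p = 0.0144). Its call was lost without control replicate 1 (edgeR adjusted p = 0.0686), without control replicate 2 (0.0584) and without knockdown replicate 1 (0.0829); in the last case the log2 fold change moved from 0.35 to 0.22.

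Of the 3 receptors, the type II receptor was called higher and the other two were not called. TGFBR2 (chr3:30606502-30694142), the ligand-binding kinase, had 21.4, 21.6 and 22.4 CPM in control replicates 1 to 3 and 25.8, 24.6 and 26.8 CPM in knockdown replicates 1 to 3. The lowest knockdown library lay above the highest control library. It rose 1.18-fold (95% interval 1.08 to 1.283; edgeR adjusted p = 0.00444). TGFBR1 (chr9:99104038-99154192), the signalling kinase, had 182, 201 and 199 CPM in control and 191, 196 and 194 CPM in knockdown replicates 1 to 3. The knockdown libraries lay inside the control range, and the fold change of 0.998 had a 95% interval of 0.941 to 1.06 (edgeR adjusted p = 0.963). The co-receptor TGFBR3 (chr1:91680343-91906335), which presents ligand to TGFBR2, had 37.5 to 39.5 CPM in control and 38.7 to 40.9 CPM in knockdown libraries. These ranges overlapped (fold change 1.03, 95% interval 0.961 to 1.11; edgeR adjusted p = 0.555). Per exon length TGFBR2 made up 12.4% ± 0.444 of the 3 receptors in control and 14.3% ± 0.585 in knockdown libraries (SD, n = 3), and the receptor sum was 37.5 ± 1.68 and 38.3 ± 0.402 CPM per kilobase.

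TGFBI (chr5:136028895-136063818), a secreted matrix protein named for its induction by TGF-beta, did not pass the test. It had 25.2, 24.3 and 25.3 CPM in control replicates 1 to 3 and 23.0, 22.2 and 24.7 CPM in knockdown replicates 1 to 3. The groups overlapped through knockdown replicate 3, and the fold change was 0.933 (95% interval 0.857 to 1.02; edgeR adjusted p = 0.226).

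**Figure D3:**
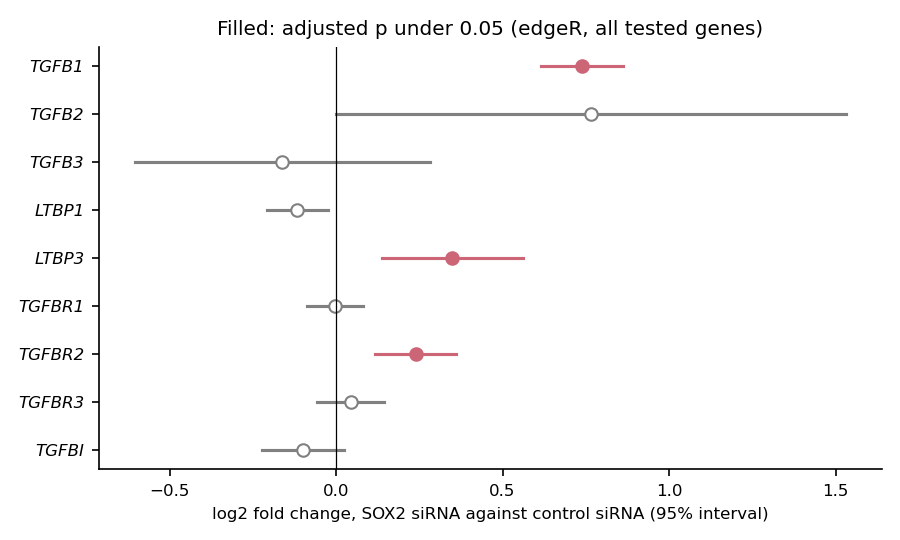
Log2 fold change of each TGF-beta gene with its 95% interval from the edgeR fit; filled red points passed an adjusted p of 0.05. TGFB1 (0.74), LTBP3 (0.35) and TGFBR2 (0.24) lie above 0, and TGFB2 has the widest interval, from -0.0008 to 1.53.

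To ask whether genes of the same role differed in their response, 6 log2 ratios of CPM + 0.5 were formed within each library and set against each other by two-sided exact permutation tests, whose smallest p with 3 against 3 libraries is 0.1. The TGFB1 to TGFB3 ratio was 3.99, 3.92 and 4.26 in control and 4.74, 4.87 and 5.12 in knockdown replicates 1 to 3. All knockdown values were higher, by 0.86 on average (exact permutation p = 0.1; 0.12 adjusted over the 6 ratios). The LTBP3 to LTBP1 ratio was higher by 0.44 in knockdown libraries and the TGFBR2 to TGFBR1 ratio by 0.24, again without overlap and with the same p-values. The TGFBR3 to TGFBR2 and TGFB3 to TGFB2 ratios were lower, with differences of -0.19 and -0.48, also without overlap. How often ratios of other gene pairs lay apart was not examined, and CPM ranges of single genes did so for 41.8% of all tested genes. Several ratios share a gene and so are not independent. With no such share and p at its smallest value, the lack of overlap cannot decide whether genes of one role differed. The TGFB1 to TGFB2 ratio overlapped between the groups (difference 0.38; exact permutation p = 0.2, adjusted 0.2). The size of both ratios over TGFB2 moved with the added constant, since TGFB2 was near the floor: with 0.1 CPM in place of 0.5 they were 0.078 for TGFB1 and -0.82 for TGFB3.

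**Figure D4:**
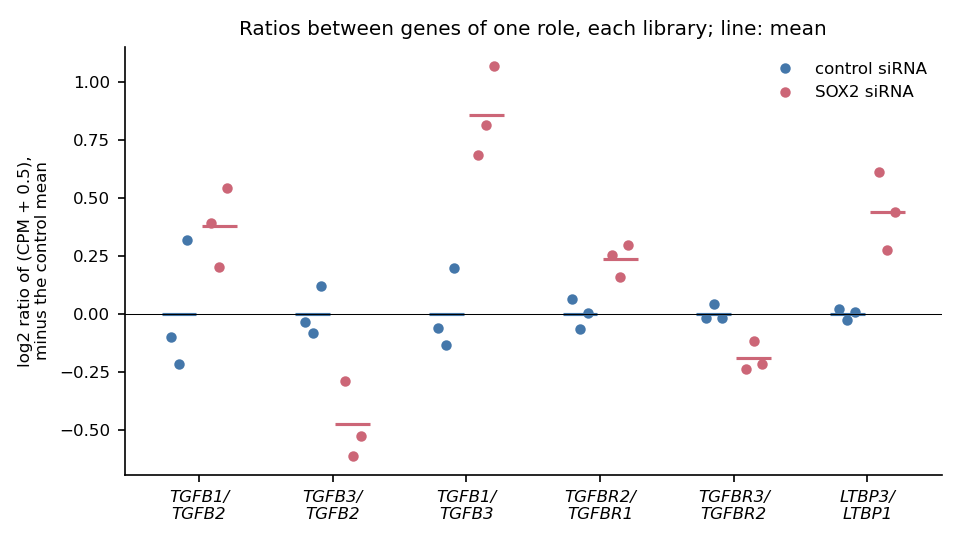
Log2 ratios of CPM + 0.5 between genes of one role in each library, with the control mean of each ratio set to 0; lines are means of 3 libraries. The TGFB1 to TGFB3 ratio has the greatest shift among the 6 ratios, 0.86, and the TGFB1 to TGFB2 ratio is the one whose groups overlap.

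The rest of the pathway was read from 6 lists by role, which hold 75 other genes, 67 of them tested. Of the 67, 22 were called higher and 10 lower, 47.8% beside 28.2% of all tested genes, and their median log2 fold change was 0.068 beside -0.00085. The lists were chosen with earlier results of these data known, and the part of that choice in this share was not tested. Called genes were most frequent among extracellular proteins and co-receptors and least frequent among the intracellular transducers; the difference between the lists was not tested. Of the 36 genes named below, 16 share exonic bases with an annotated gene transcribed from the other strand and 2, SMAD4 and ITGB6, with one on their own strand, so their counts are uncertain to that extent; among them are LRRC32, FBN2, ITGB8, A2M, NRP1, HMGA2 and CDKN1A.

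Of 13 genes for ligand release, 12 were tested, with 6 called higher and 3 lower, 75% beside 28.2% of all tested genes. The median was 0.19. The weakest of these calls passed narrowly (edgeR adjusted p = 0.0485), with CPM ranges that overlapped. Between 8 and 10 genes of the list were called under the alternatives. MMP14, a membrane protease able to free latent TGF-beta, rose by 0.70 on the log2 scale (SE 0.0409), from 65.3 to 105.9 CPM. LRRC32, the cell-surface anchor for latent TGF-beta also called GARP, had 234, 203 and 231 counts in control and 583, 579 and 678 in knockdown replicates 1 to 3, a log2 fold change of 1.37 (SE 0.0935). FBN2, a fibrillin of the microfibrils that hold LTBPs, rose by 0.60 on the log2 scale. ITGB8, the integrin subunit that activates latent TGF-beta, had 373, 253 and 335 counts in control and 202, 203 and 185 in knockdown replicates 1 to 3, a log2 fold change of -0.79 (SE 0.0896). Its partner ITGAV, the most abundant gene of the list at 340 and 335 CPM, had a log2 fold change of -0.021 (edgeR adjusted p = 0.793). ITGB6, chosen after its values were seen, had at most 4 counts in any library and was not tested.

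Of 7 extracellular ligand binders, 5 were tested, with 3 called higher and 1 lower, 80% beside 28.2% of all tested genes. The median was 0.32. BGN (biglycan), a small proteoglycan able to bind TGF-beta, rose by 2.33 on the log2 scale (SE 0.0666), from 7.58 to 38.4 CPM. EMILIN1, which restrains processing of the TGF-beta precursor, rose by 0.73 and THSD4, a microfibril-associated protein, by 0.26 on the log2 scale. A2M, a plasma-type protease inhibitor that also binds cytokines, had a log2 fold change of -0.95 and went from 324 to 168 CPM.

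All 5 genes of the co-receptor list, a type I receptor among them, were tested. Of these, 3 were called higher and 1 lower, 80% beside 28.2% of all tested genes. The median was 0.42. NRP1, a semaphorin and VEGF co-receptor that also binds TGF-beta, rose from 4.18 to 11.7 CPM (log2 fold change 1.49). BAMBI, a kinase-less decoy receptor, rose by 0.55 and ENG (endoglin) by 0.42 on the log2 scale. CD109, a surface protein that dampens TGF-beta receptor signalling, had a log2 fold change of -0.47.

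Among 12 signal transducers, all tested, none was called higher and 2 lower, 16.7% beside 28.2% of all tested genes. The median was -0.013. TRAF6, the ubiquitin ligase of the SMAD-independent branch, had a log2 fold change of -0.26 and TRIM33, a SMAD-binding chromatin protein, one of -0.16. Without control replicate 3 the call of TRIM33 was lost (edgeR adjusted p = 0.0610), which left 1 of the 12. The receptor-activated SMAD2 stood at 130 and 132 CPM (log2 fold change 0.018, 95% interval -0.061 to 0.096), SMAD3 at 58.1 and 55.0 CPM (-0.081, -0.17 to 0.0076) and their partner SMAD4 at 143 and 140 CPM (-0.023, -0.10 to 0.056) in control and knockdown cells. SMAD2, SMAD3 and SMAD4 were chosen after their values were seen. The most abundant gene of the list, STRAP, a receptor-interacting WD-repeat protein, had a log2 fold change of 0.0082.

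Of 13 brakes on the pathway, 12 were tested, with 2 called higher and 2 lower, 33.3% beside 28.2% of all tested genes. The median was 0.040. SMAD6, an inhibitory SMAD, rose by 0.47 and NEDD4L, a ubiquitin ligase for activated SMADs, by 0.18 on the log2 scale. The log2 fold change was -0.21 for TGIF1, a SMAD corepressor, and -0.20 for LEMD3, a nuclear envelope protein that binds SMADs; the call of LEMD3 was lost without control replicate 3 (edgeR adjusted p = 0.0779). SKI, the most abundant brake, had a log2 fold change of 0.011. PMEPA1, both a brake and a target and also chosen after its values were seen, had at most 16 counts in any library and was not tested.

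Of 28 further target genes, 23 were tested, with 8 called higher and 1 lower, 39.1% beside 28.2% of all tested genes. The median was 0.11. SNAI2, a transcription factor of epithelial-mesenchymal transition, had 153, 119 and 125 counts in control and 359, 422 and 403 in knockdown replicates 1 to 3 (log2 fold change 1.49, SE 0.0920). FN1 (fibronectin) rose from 473 to 1194 CPM (log2 fold change 1.33). CDKN1A, an inhibitor of cell-cycle kinases, rose by 0.81 and HMGA2, a chromatin architectural protein, by 0.40 on the log2 scale. The TGF-beta feedback genes SMAD7 and SKIL, chosen here after their values were seen, did not pass the test. SMAD7 stood at 16.3 and 15.1 CPM (log2 fold change -0.12, 95% interval -0.27 to 0.029; edgeR adjusted p = 0.231) and SKIL at 73.5 and 77.3 CPM (0.074, -0.032 to 0.18; adjusted p = 0.303) in control and knockdown cells. LOX, also chosen after its values were seen, had 442, 193 and 89 counts in knockdown replicates 1 to 3, with a 95% interval of -1.94 to 1.72 for its log2 fold change.

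**Figure D5:**
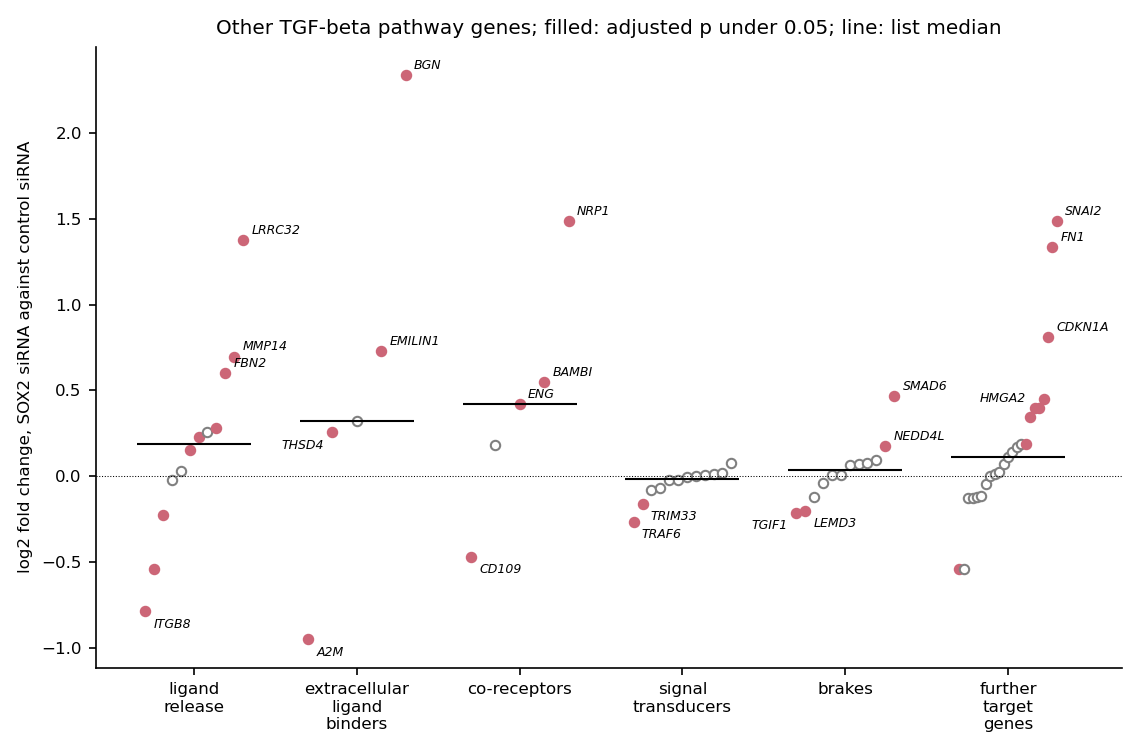
Log2 fold changes of the tested genes in 6 lists of other TGF-beta pathway genes; filled red points passed an adjusted p of 0.05, the line is the list's median, and up to 4 called genes per list are named. BGN is highest at 2.33 and A2M lowest at -0.95, while the 12 signal transducers lie between -0.26 and 0.080.

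Genes with a pattern across libraries like that of TGFB1 were sought by the Pearson correlation of log2 CPM over the 6 libraries. The 3 highest were SOX9 (r = 0.9995), CDC42EP4 (0.999) and TOB1 (0.998), whose log2 fold changes were 0.53, 0.35 and 0.52. The 6 points fall into the 2 groups compared and share their libraries' depth, and 994 genes reached r above 0.95, so these values describe mainly the difference between groups.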

How the data were processed

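Per the labels' protocols, Trizol was used for RNA extraction and a KAPA mRNA HyperPrep kit for library preparation. Per the submitters' processing notes, bcl2fastq 2.20.0, STAR 2.7.3a, Salmon 0.14.1, DESeq2 1.28.1 and the build GRCh38.p13 were used; which tool gave the counts, the annotation and the use of strand are not given in the sources used here. The deposited table holds whole-number counts per gene symbol for 6 libraries; if they are Salmon estimates, the authors rounded them. Intervals rest on the spread between libraries, counting error included. Floors treat each read as a separate molecule, which fails where reads are PCR copies.

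Genes were kept by filterByExpr (minimum count 10), scaled by TMM and tested with edgeR's quasi-likelihood F-test (robust=TRUE) on group; p-values were adjusted by Benjamini-Hochberg over every tested gene, with calls at adjusted p under 0.05. Standard errors are the log2 fold change divided by the root of F, and intervals are 95%. Unless another tool is named, adjusted p-values are edgeR's. Versions were R 4.3.3, edgeR 4.0.16, limma 3.58.1, DESeq2 1.42.0, Python 3.11.15, numpy 2.4.6, pandas 2.3.3 and matplotlib 3.10.9. The edgeR procedure was tested on simulated data in which far fewer genes changed than were called here. That test does not cover changes as widespread as these. Lengths, overlaps and gene coordinates are from GENCODE 29, windows upstream of start sites from RefSeq. Correlations used log2 CPM with a prior count of 2.

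The members and lists were chosen with earlier results of these data known. Genes named are all members, SOX2, the called genes of smallest p in each list (4 at most), the most abundant gene of each list, and the 3 genes most like the called member with the smallest p; others are said to be chosen after their values were seen. Not every gene of the lists is reported here by name. Replicate pairs within a group had a chi-square per degree of freedom of 2.91 to 6.42, above counting noise, so none was counted as 1 sample. Alternatives were other scalings, no filter, DESeq2's Wald test, limma-voom, the replicate number as a block, each library left out, and for ratios total-count CPM and other pseudocounts. No library was left out of the main results.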

Additional observations from a re-analysis of the deposited data

How the results depend on the processing

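Of 108 fits of the 9 TGF-beta genes under alternatives, 102 kept their side of the threshold, 3 lost a call (LTBP3) and 3 gained one (LTBP1). TGFB1 (log2 fold change 0.69 to 0.78) and TGFBR2 (0.21 to 0.27) were called in all 12 alternatives each. LTBP1 was called at -0.14 with upper-quartile scaling, which moved the median of all genes to -0.021 and left 45.8% of calls higher in place of 52.4%. Leaving out one library gave -0.15 to -0.094 for LTBP1, 0.22 to 0.44 for LTBP3 and 1 to 2 called signal transducers. The TGFB1 to TGFB2 difference of log2 ratios was 0.078 with 0.1 CPM added, and that of TGFB3 to TGFB2 -0.82 with 0.1 CPM and -0.20 with 2 CPM; the added constant itself sets these values near the floor. For the other changes the cause was not tested. Deviations from the group mean had correlations of 0.087, -0.038 and -0.031 between same-numbered libraries. Between differently numbered libraries they ran from -0.120 to 0.155. With 3 libraries per group, these values cannot decide whether same-numbered libraries share more than a number. With the number as a replicate block, 5177 genes were called, beside 4964 without it. In that fit 3 of the 9 members were called, with log2 fold changes of 0.74 for TGFB1 and 0.35 for LTBP3. Calls over all genes ranged from 3760 to 5212. Depth limits TGFB2 and TGFB3, with 5 to 19 and 35 to 55 counts per library.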
